A study of Mus musculus with 7 samples.

Results

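The 8 genes described here carry salt across the epithelium of the loop of Henle and the distal nephron, or are made there: Slc12a1, Umod, Kcnj1, Bsnd, Slc12a3, Scnn1a, Scnn1b and Scnn1g. They were chosen by name, through the probe sets whose only gene symbol was 1 of the 8, out of 18193 genes with a sense probe set. A total of 12 probe sets met this rule on the sense arrays, 11 of the 430A design and 1 of the 430B design. None of the 2915 genes with a named reverse probe set on the U74A or U74B arrays was among the 8, so antisense RNA of these genes was not read here. The study set total RNA of whole mouse kidney beside total RNA of whole mouse brain on 7 Affymetrix arrays, 3 for sense and 4 for reverse probe sets. Kidney sense RNA was read on the 430 2.0 array, made from 6.75 micrograms of RNA, and brain sense RNA on the 430A and 430B arrays, made from 8 micrograms. Both tissues were dissected, washed in cold buffered saline and taken straight to RNA extraction. Strain, sex, age and number of animals are not given in the sources used here. With a single array of each design per tissue, values come without replicate error or p-values, and tissue and array design cannot be told apart in the sense comparison.

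In the thick ascending limb, Slc12a1 (the cotransporter NKCC2) brings sodium, potassium and chloride into the cell from the tubule fluid, Kcnj1 (the channel ROMK) lets the potassium return to the fluid, and chloride leaves on the blood side with the help of the channel subunit Bsnd (barttin). Umod (uromodulin) is secreted by the same cells and is the most abundant protein of normal urine. Farther on, Slc12a3 (the cotransporter NCC, the target of thiazide diuretics) takes up sodium and chloride in the distal convoluted tubule, and the subunits Scnn1a, Scnn1b and Scnn1g form the sodium channel ENaC, which aldosterone controls. Brain has no such epithelium, although ENaC subunits are described at low level in some of its cells.

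RefSeq's table of transcript starts (GRCm38.p6) held 6 of the 8 genes, leaving out Bsnd and Scnn1a. The 250 bases before the start are printed for Slc12a3 and Kcnj1, in which a searched motif was found and which were both higher in kidney below, so that the match can be seen in its place. The regions are chr8:94328958-94329207, plus strand for Slc12a3 and chr9:32393735-32393984, plus strand for Kcnj1. Capitals mark the matches.
Slc12a3: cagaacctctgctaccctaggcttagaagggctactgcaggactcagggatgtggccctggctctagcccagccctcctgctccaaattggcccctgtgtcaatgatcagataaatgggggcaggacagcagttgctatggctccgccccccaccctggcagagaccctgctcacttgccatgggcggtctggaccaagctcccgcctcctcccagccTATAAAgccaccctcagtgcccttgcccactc
Kcnj1: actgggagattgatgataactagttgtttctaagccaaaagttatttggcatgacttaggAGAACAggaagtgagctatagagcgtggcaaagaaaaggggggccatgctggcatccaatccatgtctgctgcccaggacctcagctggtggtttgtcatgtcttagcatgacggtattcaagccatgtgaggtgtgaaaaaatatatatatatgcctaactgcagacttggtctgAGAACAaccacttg
The capitals in Slc12a3 are TATAAA, the TATA box, 32 to 27 bases before the start. Kcnj1 held AGAACA, the core of steroid receptor sites, at 190 to 185 and at 14 to 9 bases before the start. Both strands of all 32851 promoters of the table were searched in the same window: 12.4% held TATAAA and 16.1% AGAACA. The site of the ESRR receptors, AAGGTCA (4.08% of all promoters), was not in the window of any of the 6. These matches are a description of the letters. Scnn1b and Scnn1g are neighbours on chromosome 7 in the same RefSeq annotation, with no protein-coding gene between them, and Umod lies elsewhere on that chromosome. The other genes lie on chromosomes 2 (Slc12a1), 4 (Bsnd), 6 (Scnn1a), 8 (Slc12a3) and 9 (Kcnj1).

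Kidney had more sense signal than brain for 5 of the 8 genes by the rule used here, and brain for none. Signals are MAS5 intensities, given as deposited. For ratios, brain signals were brought to the kidney scale (multiplied by 1.79 on 430A and by 0.236 on 430B), signals under a floor of 186.4 for 430A probe sets and 28.6 for 430B probe sets were raised to it, and a gene was called higher in a tissue from 2-fold. Where the lower tissue was under the floor, the fold is a bound and written as at least. In the same comparison 26.4% of 12908 genes above the floor were called higher in kidney and 18.2% in brain. The median log2 ratio of kidney over brain was 1.99 over the 8 genes and 0.08 over all 12908. By probe set, 3 of the 12 were under the floor in both tissues, and of the other 9, all on 430A, 6 were called higher in kidney, against 21.1% of all 430A probe sets above the floor. The 3 under the floor were the dimmer of the probe sets of Slc12a1, Kcnj1 and Slc12a3.

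**Figure D1:**
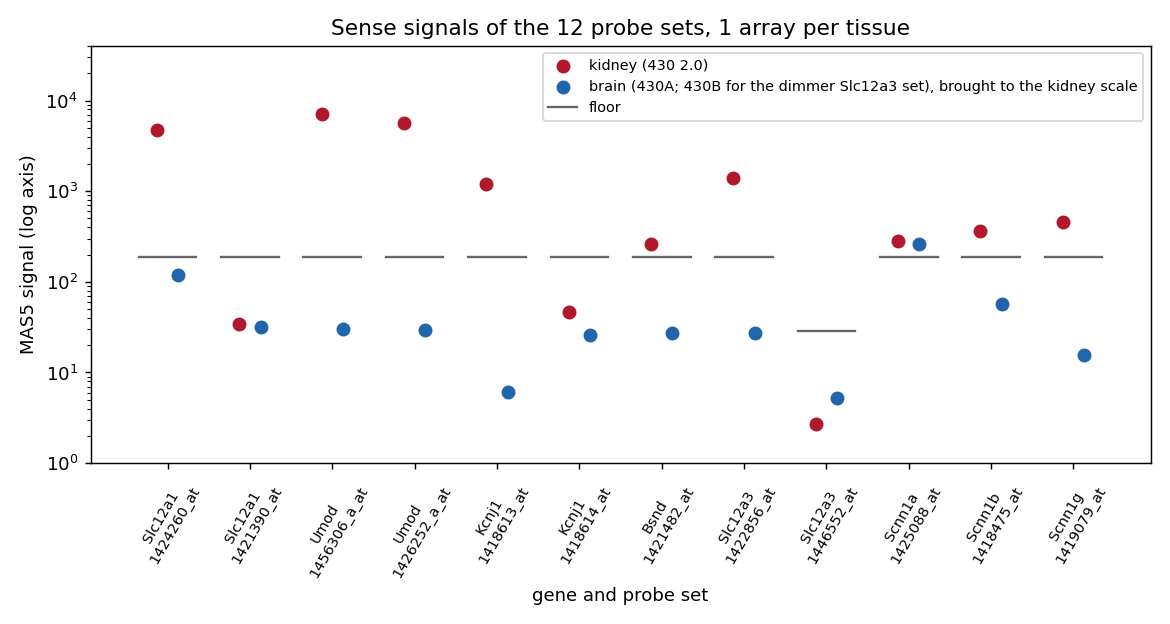
MAS5 sense signal (log axis) of each of the 12 probe sets in kidney (red) and in brain brought to the kidney scale (blue), 1 array per tissue; grey bars are the floor. Brain lies under the floor for 11 of the 12 probe sets, and Scnn1a is the exception.

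Among the genes of the thick ascending limb, Umod read 7093.2 in kidney and 17 in brain with 1 probe set, at least 38.1-fold higher in kidney, and 5623 in kidney and 16.6 in brain with the other, at least 30.2-fold higher. These signals stood at the 99.8th and 99.4th percentiles of the kidney array, and at the 14.8th and 14.6th of the brain array. Both probe sets of Umod therefore gave the same call.

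Slc12a1 read 4673.7 in kidney and 67 in brain with probe set 1424260_at, at least 25.1-fold higher in kidney. Its other probe set, 1421390_at, read 34.5 in kidney and 17.9 in brain, under the floor in both tissues. Kcnj1 showed the same split: 1418613_at read 1200.7 in kidney and 3.4 in brain and was at least 6.44-fold higher in kidney, while 1418614_at read 46.1 in kidney and 14.5 in brain, again under the floor. The call for each of these genes thus rests on 1 of 2 probe sets.

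Bsnd, the channel subunit on the chloride path, had 1 probe set, which read 262.2 in kidney and 15.1 in brain. The kidney signal was just 1.41 times the floor, so the ratio is known only as at least 1.41-fold higher in kidney and the gene was not called. Without a floor the ratio of the scaled signals was 9.69-fold, with the brain signal at the 13.6th percentile of its array.

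In the distal convoluted tubule, Slc12a3 read 1386 in kidney and 15.2 in brain with 1422856_at, at least 7.44-fold higher in kidney. Its probe set on the 430B design, 1446552_at, read 2.7 in kidney and 22 in brain, under the floor of 28.6 in both once the brain signal was scaled.

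Of the 3 subunits of ENaC, 1 was called higher in kidney. Scnn1g read 457.9 in kidney and 8.8 in brain and was at least 2.46-fold higher in kidney. Scnn1b read 361.4 in kidney and 31.4 in brain and was at least 1.94-fold higher in kidney, which is just under the 2-fold line. Scnn1a, the subunit that the channel cannot do without, read 281.9 in kidney and 147 in brain. Brought to the kidney scale, the brain signal of Scnn1a was 263.4, and the ratio was 1.07. It was the only gene of the 8 above the floor in brain, at the 79.8th percentile of the kidney array and at percentile 60.2 of the brain array. Whether the Scnn1a probe set also picks up another RNA in brain was not tested, since probe sequences were not used here.

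**Figure D2:**
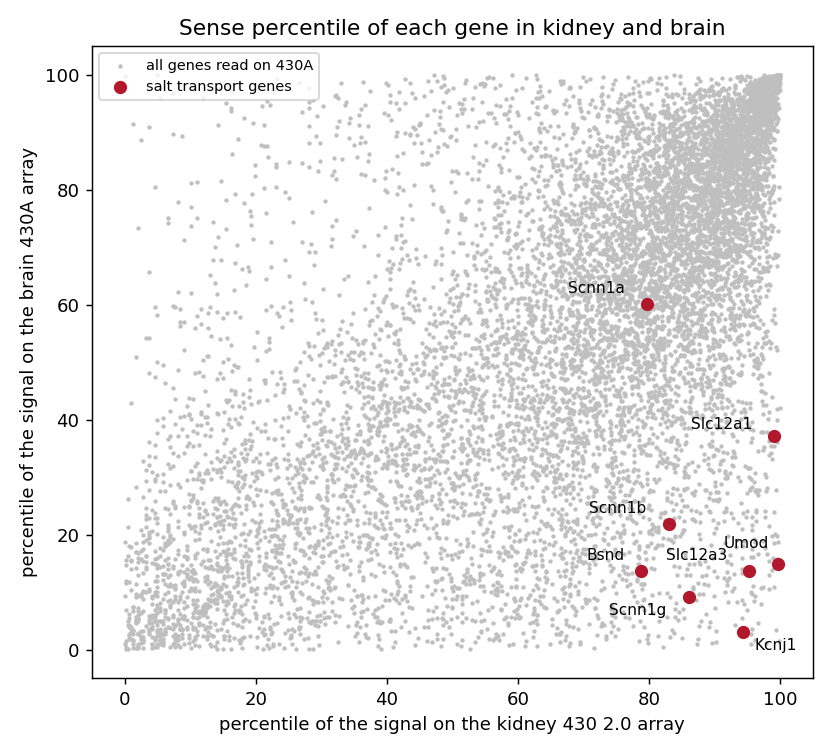
Percentile of the sense signal on the kidney 430 2.0 array (horizontal) against that on the brain 430A array (vertical), for all genes whose brightest-ranked probe set is on 430A (grey) and for the 8 salt transport genes (red). Scnn1a lies at 79.8 and 60.2, and the other 7 lie below 40 in brain.

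The calls of the 8 genes were compared over 5 settings of the scaling and the floor that can move a 430A probe set, the design of the probe set that stands for each of the 8. Slc12a1, Umod, Kcnj1 and Slc12a3 were called higher in kidney in 5 of 5. Scnn1g was called in 4 of 5 and dropped out with the floor at the 75th percentile, where its kidney signal of 457.9 lay just under the floor of 459. Scnn1b was called in 3 of 5 and Bsnd in 2 of 5. With signals as deposited, which do not bring the arrays to a common centre, 7 of the 8 genes were called higher in kidney. That count stands beside 26.6% of all genes, but 39.2% of 430A probe sets above the floor and 3.72% of those on 430B. Scnn1b was then at least 2.98-fold and Bsnd at least 2.16-fold higher. Quantile normalization gave 6 of the 8 (23.9% of all genes), and leaving out the floor gave 7 (25.9%). With the floor at the 75th percentile 4 genes were above it and all 4 were called (27.9%). The 5 genes called in the text were also those called with each gene given the median over its probe sets above the floor (23%). The dimmer probe sets of Slc12a1, Kcnj1 and Slc12a3 were under the floor and did not enter this median. It therefore could not test whether those calls hold over all probe sets of the gene. Bringing 430B to the 430A scale (15.7%) or giving it the 430A floor (23.4%) changes 430B values alone and could not move these calls. Scnn1a was called in none, and its largest ratio was 1.92-fold, as deposited.

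**Figure D3:**
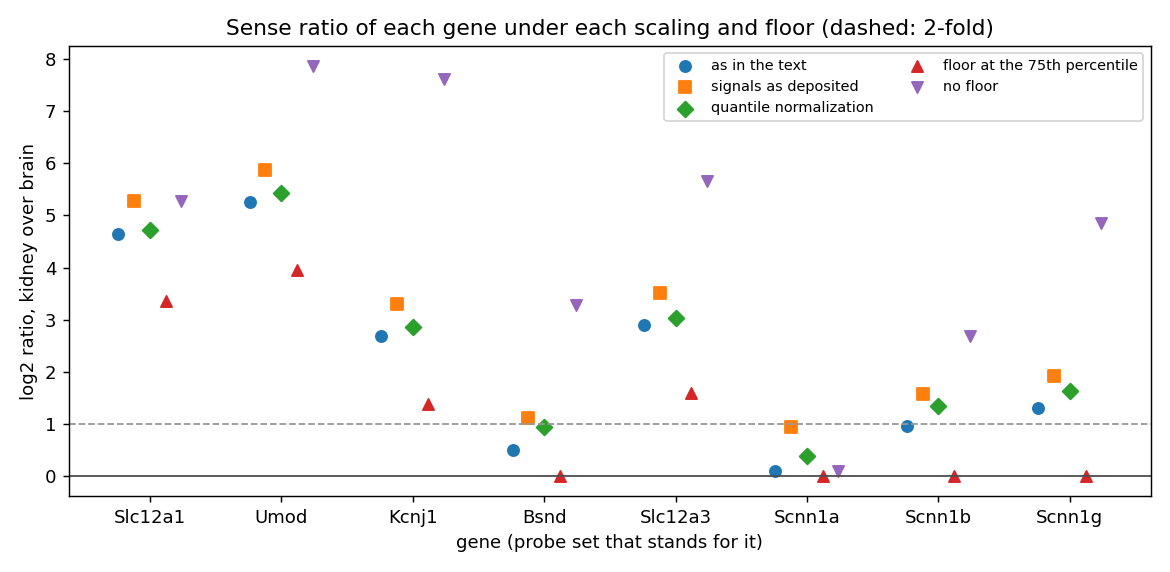
Log2 ratio of kidney over brain (vertical) for the probe set that stands for each of the 8 genes, under the setting of the text and 4 others; the dashed line marks 2-fold, and a gene under the floor in both tissues stands at 0. Umod, Slc12a1, Slc12a3 and Kcnj1 lie above it in every setting, and Scnn1a below it in every setting.

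A further 7 lists of genes of the same pathways, 82 genes beyond the 8, were looked up the same way, and their counts stand beside the 26.4% of all genes called higher in kidney and the 18.2% called higher in brain. With signals as deposited the floor was 121.2 on 430A and 121.5 on 430B, so the bound of a kidney signal over the floor is then 1.54 times as large on 430A and 4.24 times smaller on 430B. Of 7 partners of salt transport read, 3 were higher in kidney and 2 in brain, with a median log2 ratio of 0.32. Fxyd2, the gamma subunit of the sodium pump, read 6373.2 in kidney and 78.7 in brain and was at least 34.2-fold higher in kidney. Slc9a3, the sodium-proton exchanger NHE3, read 559.3 in kidney and 217.3 on the brain 430B array, 10.9-fold higher in kidney after scaling and 2.57-fold as deposited. Kcnma1, the BK potassium channel that also secretes potassium in the distal nephron, read 8.6 in kidney and 469.4 in brain and was at least 4.51-fold higher in brain, a call lost with the floor at the 75th percentile. Of its 5 probe sets, 1 was called for brain, 1 for kidney and 3 for neither tissue.

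Among genes that control these transporters, 6 of 15 were higher in kidney and none in brain, with a median of 0.96. As deposited, 11 of the 15 were higher in kidney and 2 in brain. In that setting 26.6% of all genes were called higher in kidney and 24.2% in brain, and on 430A 39.2% and 11.1% of probe sets. Hsd11b2, the enzyme that keeps glucocorticoids off the aldosterone receptor, read 1655.4 in kidney and 101.5 in brain and was at least 8.88-fold higher in kidney. Prss8 (prostasin), a protease that activates ENaC, read 1232.8 in kidney and 7.6 in brain and was at least 6.62-fold higher in kidney. Sgk1, the aldosterone-induced kinase, read 2253.6 in kidney and 280.4 in brain, a 4.49-fold difference. Stx3, a syntaxin of apical membranes, read 1056.8 in kidney and 163.6 in brain, 3.61-fold higher, with 2 of its 4 probe sets called. Of the kinases that switch Slc12a1 and Slc12a3 on, Wnk4 read 604.9 in kidney and 41.2 in brain and was at least 3.25-fold higher in kidney, though not called with the floor at the 75th percentile, while Stk39 (SPAK) read 242 in kidney and 235.9 in brain, not called after scaling. Wnk1 read 3830.4 in kidney and 1223.7 in brain, 1.75-fold after scaling and not called, and 1 of its 3 probe sets was called higher in kidney (778.2 in kidney and 32.4 in brain).

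Genes of divalent ion and paracellular transport in these segments gave 7 of 11 higher in kidney and 1 in brain, with a median of 1.49. S100g, a calbindin of the distal tubule and gut, read 7484.1 in kidney and 2.1 in brain and was at least 40.2-fold higher in kidney. Cldn8, a claudin of the distal nephron, read 1918.2 in kidney and 4.7 in brain and was at least 10.3-fold higher in kidney. Egf, which the thick limb and distal convoluted tubule secrete, read 708.1 in kidney and 86.8 in brain and was at least 3.80-fold higher in kidney, and Cldn4 read 648.5 in kidney and 88.4 in brain and was at least 3.48-fold higher in kidney. With the floor raised to the 75th percentile, Egf and Cldn4 were not called. Pvalb, the gene called higher in brain, is made by the distal convoluted tubule and by many inhibitory neurons, and it read 1221.2 in kidney and 1397.1 in brain. It was 2.05-fold higher in brain after scaling, but 1.14-fold and not called as deposited.

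Among relatives of Slc12a1, Slc12a3 and ENaC, no gene was called higher in kidney by the probe set that stands for it. Of the Slc12a relatives above the floor, none of 3 was higher in kidney and 2 were higher in brain: Slc12a5, the neuronal chloride extruder KCC2, read 43.5 in kidney and 2432.1 in brain, where it was higher by at least 23.4-fold, and Slc12a9 read 142.1 in kidney and 284.5 in brain and was at least 2.74-fold higher in brain. Slc12a2, the widely expressed sister of Slc12a1, read 948.8 in kidney and 715.8 in brain and was not called. Slc12a7, a potassium-chloride cotransporter, was under the floor with the probe set that stands for it, while its other probe set read 417.4 in kidney and 21.4 in brain and was at least 2.24-fold higher in kidney. Of the acid-sensing channels, which belong to the ENaC family, 2 of 3 above the floor were higher in brain: Asic1 read 12 in kidney and 1199.5 on the brain 430B array, and Asic2 43 in kidney and 252.1 in brain. They were at least 9.87-fold and at least 2.42-fold higher in brain. Neither Asic2 nor Slc12a9 was called once the floor was raised to the 75th percentile, nor Asic1 once 430B took the 430A floor.

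Of the inward rectifiers, relatives of Kcnj1, 4 of 10 were higher in kidney and 2 in brain, with a median of -0.13. The balance turned to 2 in kidney and 3 in brain of 9 as deposited, and likewise with 430B on the 430A scale. With no floor it was 5 in kidney and 7 in brain of 14. Over all genes, the shares called higher in kidney and in brain were 26.6% and 24.2% as deposited. They were 15.7% and 26.6% with 430B on the 430A scale, and 25.9% and 33.7% with no floor. Kcnj15 read 1509.2 in kidney and 14.1 on the brain 430B array, at least 52.7-fold higher in kidney after scaling and at least 12.4-fold as deposited. Its 430A probe set read 824.5 in kidney and 15 in brain and was at least 4.42-fold higher in kidney. Kcnj16, a channel subunit of the blood side of distal cells, read 1236.8 in kidney and 274.8 on that array, 19.1-fold higher after scaling and 4.50-fold as deposited. Kcnj10, which pairs with Kcnj16 in the distal nephron and is the main potassium channel of astrocytes, read 233.1 in kidney and 578 in brain, 4.44-fold higher in brain. Kcnj9, a neuronal subunit, read 1.4 in kidney and 496.3 on the brain 430B array, at least 4.08-fold higher in brain, but was not called with either higher floor, the 75th percentile or that of 430A.

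Transcription factors of kidney tubules gave 10 of 14 higher in kidney and none in brain, with a median of 1.69. As deposited 7 of the 14 were higher in kidney (median 0.90, 26.6% of all genes). With 430B on the 430A scale it was also 7 (median 0.86, 15.7% of all genes). Quantile normalization gave 8 in kidney and 1 in brain, beside 23.9% and 19.9% of all genes. Hnf4a read 2171.6 in kidney and 108.7 in brain, 11.1-fold higher in kidney, although it is known above all from the proximal tubule. Tfcp2l1, a factor of distal tubule and collecting duct, read 1892.8 in kidney and 42.5 in brain and was at least 10.2-fold higher in kidney, with 1 of its 3 probe sets called. Tfap2b, a factor of the distal convoluted tubule, read 436 in kidney and 207.3 on the brain 430B array, 8.92-fold higher after scaling and 2.10-fold as deposited. Its 430A probe set was at least 1.05-fold higher in kidney and not called. Esrrg, a receptor of cells rich in mitochondria, read 760.9 in kidney and 499.4 on the brain 430B array, 6.46-fold higher after scaling, but 1.52-fold and not called as deposited. Of its 3 probe sets this was the 1 called, and the others were at least 1.53-fold and at least 1.66-fold towards brain.

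**Figure D4:**
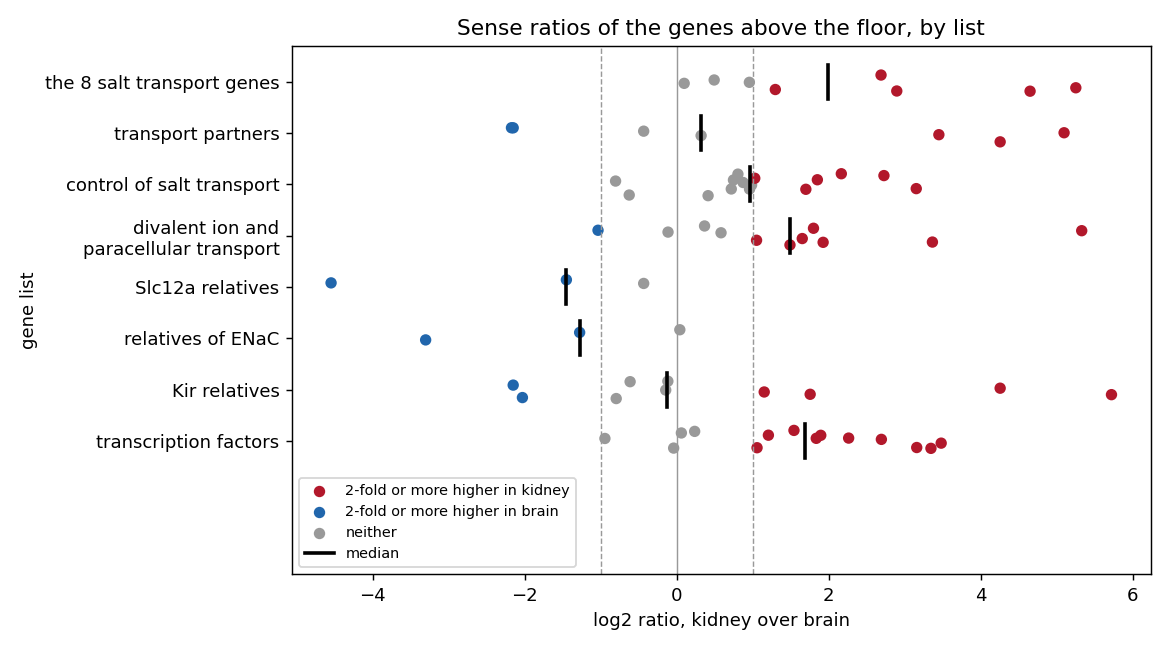
Log2 ratio of kidney over brain (horizontal) of the genes above the floor, for the 8 salt transport genes and the 7 lists (rows); red points are called higher in kidney, blue in brain, grey in neither, and black bars are medians. The median is 1.99 for the 8 genes, -1.45 for the Slc12a relatives and -1.28 for the relatives of ENaC.

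For the 5 genes called higher in kidney, the genes with the most similar pair of signals were sought among 10851 others read on 430A, by distance between log2 signals in kidney and brain with the floor applied. Because brain was at the floor, this likeness over 2 arrays rests on the kidney signal. The nearest were Slc34a1 and Cyba to Slc12a1, S100g and Cltrn to Umod, Scin and Cubn to Kcnj1, Cdhr5 and Clrn3 to Slc12a3, and Snap23 and Akip1 to Scnn1g. The distances were between 0.0019 for Snap23 and 0.107 for Cltrn.

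Although the 8 genes had no reverse probe set, 10 of the 82 list genes had 12. Of these, 5 were above the floor (63.5 on U74A and 98.5 on U74B), 1 was called higher in brain and none in kidney. Among all reverse probe sets above the floor, 28.8% on U74A and 14.4% on U74B were called higher in brain. The shares called higher in kidney were 3.73% and 6.42%. Cul3, a scaffold of the ubiquitin ligase that degrades WNK kinases, read 107.2 in kidney and 243 in brain on its reverse U74B probe set, 2.27-fold higher in brain. Of its 5 sense probe sets, 2 were also called higher in brain, at least 6.85-fold and at least 2.85-fold, and none in kidney. The sense probe set that stands for Cul3 was 1.94-fold towards kidney and not called. The reverse probe set of S100g read 222 in kidney and 175.8 in brain, a ratio of 1.26, beside sense signals of 7484.1 in kidney and 2.1 in brain. The reverse probe set of Pou3f3, a factor of the loop and of neurons, read 196.7 in kidney and 20.3 in brain. It was at least 1.997-fold higher in kidney and so just under the line.

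Markers of the cells that could carry these genes were read as well. All 6 markers of the thick ascending limb were higher in kidney (3 with the floor at the 75th percentile), beside 26.4% of all genes, and in kidney their signals summed to 16002.5, against 1202.3 in brain on the kidney scale. Slc12a1 and Umod are among these 6 and read 4673.7 and 7093.2 in kidney, so most of that sum repeats the values above. Of the other markers of this list, Cldn10 alone stayed called with the floor at the 75th percentile. Of 4 markers of the distal convoluted tubule 1 was higher in kidney, Slc12a3 itself, which is near the share of all genes, and 1 was higher in brain, Pvalb. Of 6 markers of principal cells 4 were higher in kidney, among them the water channel Aqp2. In kidney the 5 neuronal markers summed to 134.9, against 24919 in brain on the same scale, and all 5 were higher in brain. The lists share Slc12a1, Umod, Slc12a3, Scnn1b and Scnn1g with the 8 genes. In whole-tissue RNA, fewer cells of a type and less RNA per cell cannot be told apart.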

How the data were processed

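The labels place each of the 7 arrays in 1 group by tissue, strand and array design. The authors deposited MAS5 signals (per the submitters' processing notes), so each value is a linear intensity. Per the labels, the U74 tables hold the reverse-oriented probe sets alone, picked with a mask from Affymetrix. The sources used here give no detection calls, so the floor on the signal took their place. Gene names came from GEO's annotation of each platform, updated through the gene identifier to RefSeq (GRCm38.p6). Of 45037 kidney sense probe sets 34945 had 1 symbol, 932 several and 9160 none.

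Sense pairs were centred on the median of log2 kidney over brain over probe sets above both medians (0.84 for 430A and -2.08 for 430B). The floor was the higher of the medians. For each gene, the probe set of highest average percentile in kidney and brain was used. The 100 probe sets on both brain arrays were read from 430A. Between both arrays the 98 bright ones had an SD of 0.25 on the log2 scale, the only repeat reading. Their median log2 ratio of 430A over 430B was -1.33. Bringing 430B to the 430A scale through them put the 430B shift at -0.49 instead of -2.08, so 430B folds depend on this choice. For reverse probe sets, signals as deposited and a floor at the higher 75th percentile were used. The rule named the 8 genes with every probe set, of each list up to 4 called genes by size of the ratio, and the 2 nearest genes to each called gene. Wnk1, Wnk4, Stk39, Slc12a2, Slc12a7, Pvalb, Aqp2 and the reverse readings were named after their values were seen. The genes and lists were chosen with earlier results of these data known. On simulated data with the noise of the repeat, a change of 1.5 on the log2 scale was recovered for 98 of 100 bright probe sets on 430A (22626 probe sets) and for 99 of 100 on 430B (22511), and 2 and 1 unchanged probe sets were called. That noise came from bright probe sets on both brain arrays. It does not cover dim signals or the difference of design between kidney and brain arrays, and it cannot show the spread between animals. Python 3.11.15, numpy 2.4.6 and pandas 2.3.3 were used. Protein sequences were not used here, and some genes of the lists and a promoter motif are not reported here.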

Additional observations from a re-analysis of the deposited data

How the results depend on the processing

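The median over those of the 8 genes above the floor lay towards kidney under every scaling and floor that can move 430A values, with 4 to 7 genes called. This median log2 ratio of 1.99 became 2.61 with signals as deposited and 2.25 with quantile normalization. It became 5.07 with no floor, since the floor sets the size of a ratio whose brain signal lies under it. With the floor at the 75th percentile it was 2.47, over the 4 genes still above the floor. Each of these 4 had a smaller ratio than in the text, such as 3.35 against 4.65 for Slc12a1. The median rose because Bsnd, Scnn1a, Scnn1b and Scnn1g, whose ratios were lower, dropped out. Of the 82 list genes, 60 were above the floor and 8 of these were called higher in brain, beside 18.2% of all genes. The count became 4 of 47 with the floor at the 75th percentile (12.6% of all genes) and 17 of 72 with no floor (33.7%). Those called higher in kidney were 29, 20 and 32 in the same order, beside 26.4%, 27.9% and 25.9% of all genes. Bringing 430B to the 430A scale by way of their shared probe sets could not move the 8 genes, whose probe sets that stand for them are on 430A, but turned the balance over all genes to 15.7% called higher in kidney and 26.6% in brain, and moved the median log2 ratio of all genes to -0.29. It also shrank the kidney ratios of list genes read on 430B, such as Kcnj15, Kcnj16, Slc9a3, Tfap2b and Esrrg. Under the settings that can move 430A values, none of the calls of the 8 genes turned direction. The alternatives planned for reverse probe sets of the 8 genes could not be run, since they have none. No paired analysis was possible because each group holds 1 array. The number of arrays limits all values, and signal over background limits Bsnd, Scnn1a and Scnn1b most, whose kidney signals were under 2 times the floor.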

Other observations

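Markers of intercalated cells, which carry acid and base in the collecting duct beside the cells with ENaC, were higher in kidney for 3 of 5 genes, beside 26.4% of all genes, and for 1 to 5 of them over the other settings. The proton pump subunit Atp6v1b1 was at least 4.59-fold higher, Atp6v0d2, read on 430B, at least 14.6-fold after scaling (at least 8.84-fold with its other probe set, and at least 3.44-fold as deposited) and the anion exchanger Slc4a1, which red blood cells also express, at least 2.86-fold. Atp6v1b1 and Slc4a1 were not called once the floor was raised to the 75th percentile. Slc26a4 (pendrin) was 1.90-fold and the factor Foxi1 at least 1.92-fold higher in kidney, both just under the 2-fold line. In principal cells, the water channels Aqp2 and Aqp3 were 8.12-fold and at least 8.12-fold higher in kidney, while Avpr2, the vasopressin receptor, was at least 1.13-fold higher and not called.

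Several markers of one tissue were also bright in the other. Of 5 choroid plexus markers above the floor, 3 were higher in kidney (Folr1, Kl and Clic6) and none in brain. All genes gave 26.4% in kidney and 18.2% in brain. As deposited, 2 were higher in kidney and 1 in brain, Kcnj13, and Clic6 was not called (26.6% and 24.2% of all genes). The same held with 430B on the 430A scale (15.7% and 26.6% of all genes). Ttr, the defining gene of choroid plexus, read 5593.3 in kidney and was 1.61-fold towards brain with the probe set that stands for it, not called. Of its 4 probe sets, 1 was called, 5.08-fold higher in brain with 1550.8 in kidney. The remaining 2 were 1.01-fold and 1.15-fold towards kidney after scaling. The 1.15-fold probe set was read on 430B, at 3471.6 in kidney and 12769.8 in brain as deposited. Aqp4, the water channel of astrocytes and of principal cells, read 754.8 in kidney and was 1.81-fold towards brain, not called either, while its other 2 probe sets were called higher in brain, at least 3.82-fold and 2.25-fold. The source of the Ttr signal in kidney was not tested.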
